A study of Danio rerio with 8 samples.

Results

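Zebrafish larvae exposed to ZnO NPs were compared with unexposed larvae at 96 hpf across the whole transcriptome, using the arrays that the labels place in these groups: 3 arrays of exposed larvae and 2 control arrays, 5 of the 8 arrays in the series. Exposed larvae had been kept for 96 h in culture water with ZnO NPs at a nominal 2.64 mg/L, the LC25 of the study, and control larvae in the same water at 0 mg/L. The other 3 arrays, from larvae kept in ZnSO4 (7.75 mg/L), entered only the estimate of the spread. Each array held RNA of pooled whole larvae, the labels give no strain, and a lower signal from whole larvae can stand for fewer cells of a type or for less RNA per cell, which cannot be told apart.

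Zinc is a structural and catalytic part of many proteins, and cells keep little of it free. In fish, the transcription factor Mtf1 senses zinc and switches on metallothionein, which binds the metal, and the exporter Slc30a1, which moves it out of the cytosol. ZnO particles release zinc ions, are known to interfere with the hatching enzyme of zebrafish embryos and can produce reactive oxygen species. Unfed larvae exchange ions with the water through ionocytes, the transport cells of the skin and gills.

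Per array, 77.5% to 85.8% of the 43603 probes were well above background, and no spot was saturated. Control replicate 1 correlated with the other arrays at 0.99 to 0.993, while the other pairs reached 0.993 to 0.996. A number in the barcode of each array was read here as the side of the slide. By it ZnO NP replicates 1 and 2 shared a side with the 2 controls. ZnO NP replicate 3 lay on the other side, so leaving out that replicate also gives the comparison within 1 such side. Signals below are processed signals scaled to a common 75th percentile of 1150, and log2 fold changes are ZnO NPs over control with the standard error of the limma fit. The number of arrays, above all the 2 controls, limits the precision. Of 5 marker genes listed for each tissue, all 5 were measured for neurons, retina, skeletal muscle, intestine, ionocytes and epidermis, and 3 or 4 for the others, among them liver, lens, heart and hatching gland.

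In all, 34400 probes were tested, those that at least 1 of the 2 groups had well above background throughout. Of these, 7 rose and 7 fell by at least 1.5-fold at a Benjamini-Hochberg adjusted p under 0.05, which is 0.0203% of the probes in each direction. The genes that rose were the uncharacterized zgc:110286 on 3 probes, arf4b, which encodes a small GTPase of vesicle transport, and the uncharacterized loci LOC560642 and LOC566845. The genes that fell were egr4, an immediate early transcription factor, kcnj1a.2 on 2 probes and kcnj1a.1 on 1, which encode inwardly rectifying potassium channels of the kind found in potassium-secreting ionocytes, msrb2, which reduces oxidized methionine in mitochondria, and the transcript wu:fj62d01. The 2 other called probes have no symbol. The 5 arrays separated by group on every called probe, but a call on these same values favours such separation.

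On the brightest of its 3 probes, zgc:110286 had signals of 190 and 178 on the control arrays and 542, 631 and 709 on the ZnO NP arrays. Its 3 probes rose by 1.76 ± 0.12, 2.25 ± 0.18 and 2.47 ± 0.23 on the log2 scale (adjusted p = 0.0083, 0.0209 and 0.0346 in limma) and each probe separated the groups. arf4b gave 185 and 216 in control larvae and 683, 676 and 888 in exposed larvae, a 3.72-fold difference (1.89 ± 0.16, adjusted p = 0.0219). The lowest exposed value was thus far above the highest control value. LOC560642 went from 147 and 159 to 502, 680 and 592 (1.94 ± 0.12, adjusted p = 0.0083), and LOC566845 from 63.2 and 69.2 to 152, 140 and 149 (1.15 ± 0.09, adjusted p = 0.0209).

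For egr4 the control arrays gave 3190 and 5100 and the exposed arrays 1250, 1120 and 1160, a 3.43-fold difference (-1.78 ± 0.18, adjusted p = 0.0356). The exposed larvae were close to each other, and the control arrays were apart by more than all 3 of them. The brighter kcnj1a.2 probe gave 2400 and 2320 in control larvae and 860, 1120 and 801 in exposed larvae (-1.36 ± 0.14, adjusted p = 0.0356), and the other probe fell by 1.34 ± 0.11 (adjusted p = 0.0209). The called kcnj1a.1 probe fell from 544 and 540 to 329, 302 and 298 (-0.81 ± 0.08, adjusted p = 0.0346), and its second probe was 1.43 lower on the log2 scale without passing the threshold. These channel genes are close relatives, and cross-hybridization between them cannot be told apart from separate changes. msrb2 had the tightest groups: 4370 and 4390 against 2820, 2860 and 2850 on the called probe (-0.62 ± 0.06, adjusted p = 0.035), with its other probes lower by 0.26 and 0.65. An unnamed probe (A_15_P116560) was not well above background on any exposed array, and was at least 2.68-fold higher in control larvae.

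**Figure D1:**
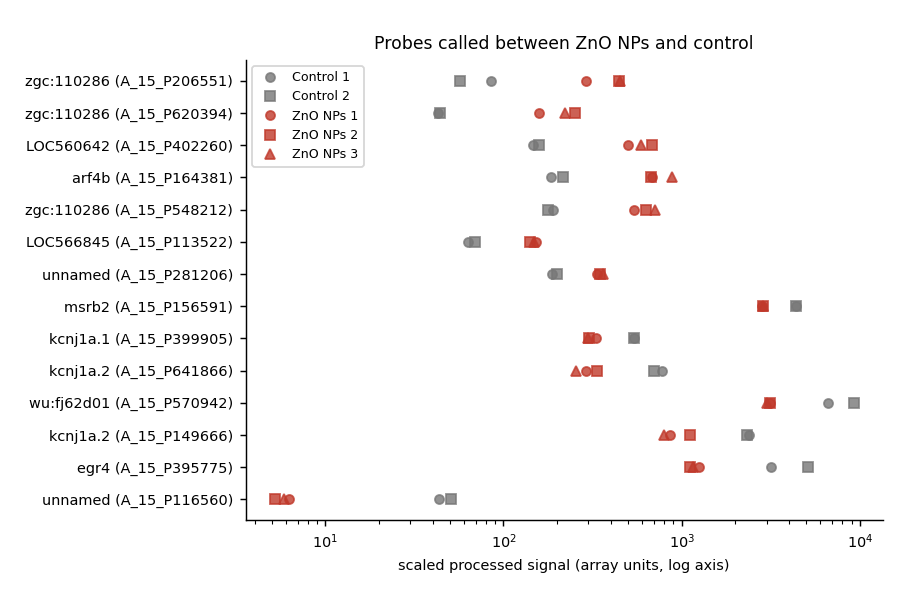
Scaled processed signal (log axis) of the 14 called probes on each array, with control arrays in grey and ZnO NP arrays in red. The groups do not overlap on any of these probes, and the control arrays lie furthest apart for egr4, wu:fj62d01 and one zgc:110286 probe.

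Single arrays carried weight in these calls. Leaving out ZnO NP replicate 1, 2 or 3 left 5, 6 and 2 of the 14 probes called, and leaving out control replicate 1 left 7. Without control replicate 2 all 14 remained, among 1696 called probes. With the 5 arrays alone in the fit, 1 of the 14 probes was called. That probe was a lower one, and 0 probes were called up, so zgc:110286 was not called. The fits with 1 array left out kept the ZnSO4 arrays in the estimate of the spread. zgc:110286 and the unnamed probe A_15_P116560 stayed called with each of the 5 arrays left out in turn, no other gene or probe did, and the mean log2 fold change of zgc:110286 then ranged from 2.06 to 2.33. The unnamed probe had been tested through the control arrays alone, its exposed values lay below background, and its log2 fold change of -3.02 was -0.43 with normexp correction. A call on arf4b, kcnj1a.1 or msrb2 held only without control replicate 2.

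Below the adjusted threshold the comparison was broad and shallow. At an unadjusted p under 0.05 and the same fold change, 719 probes were higher (2.09% of those tested) and 331 were lower (0.962%). With no limit on fold change, 8705 probes (25.3%) reached that unadjusted p, and at an adjusted p under 0.10 the called probes numbered 159 up and 81 down. The excess of higher over lower probes depended on the scaling: with quantile normalization 318 were higher and 494 lower, with normexp background correction 113 and 158, and without control replicate 1 415 and 651.

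Of 6917 genes with at least 2 tested probes, 39 were higher on every probe (0.564%) and 42 were lower on every probe (0.607%), each probe at an unadjusted p under 0.05 and with a median change of at least 1.5-fold. These genes are given as higher or lower and not as risen or fallen, except where a probe passed the adjusted threshold. Leaving out 1 array kept between 12 (without control replicate 1) and 34 (without ZnO NP replicate 1) of the 39 higher genes, and between 16 (without control replicate 1) and 33 (without ZnO NP replicate 3) of the 42 lower ones. Normexp correction kept 11 and 25.

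Besides zgc:110286, the genes with the largest higher values on all probes included slc27a1b, a fatty acid transport protein, rhcga, the ammonia channel of ionocytes, klf9 and fkbp5, direct targets of the glucocorticoid receptor in other vertebrates, mt2, the metallothionein, cyp24a1, which inactivates vitamin D, pdk2b, a kinase that slows pyruvate oxidation, and ryr1b, a calcium release channel of muscle. klf9 averaged 440 and 479 over its probes in control larvae and 869, 754 and 1060 in exposed larvae (0.95 ± 0.14), and fkbp5 averaged 422 and 512 against 875, 709 and 1050 (0.9 ± 0.17). Both were higher on all 3 exposed arrays, and with any array left out klf9 was at least 0.82 and fkbp5 at least 0.76 higher. For ryr1b all 6 probes were higher, and the mean went from 79.4 and 103 to 136, 180 and 145 (0.75 ± 0.17). The control arrays disagreed for slc27a1b, at 18.7 and 63.1 against 112, 122 and 101. Its log2 fold change was thus 0.82 without control replicate 1 and 2.57 without control replicate 2. The slc27a1b probe with the larger change had 1 of 2 control arrays above background, and the gene was at 0.73 with normexp correction. The remaining genes of this group were itgb4, an integrin of the epidermal base, pkhd1l1.2 and ints6l, at 0.79, 0.92 and 0.77 on the log2 scale, each with at least 1 probe that only 1 control array had above background.

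The largest lower values on all probes belonged to fosab, an immediate early gene, ccl20a.3, a chemokine, kcnj1a.2 and kcnj1a.1, ch25h, a cholesterol hydroxylase, he1.2 and ctslb, of the hatching gland, pde6ha, a phosphodiesterase subunit of cones, and apoa4a, an apolipoprotein. The cathepsin L gene ctslb lies on the same chromosome as MGC174155, si:dkey-26g8.5 and wu:fa26c03, which were lower by 1.14, 1.23 and 1.23 where ctslb was lower by 1.16. All 4 had the same order of arrays, with control replicate 1 highest, and probes that share targets cannot be told apart from separate changes here. ccl20a.3 gave 238 and 280 in control larvae and 96.7, 120 and 85.7 in exposed larvae (-1.37 ± 0.36). ch25h was near background in exposed larvae, with 1 of 3 arrays above it on each probe, and was at -0.24 with normexp correction. apoa4a was spread in both groups, at 6090 and 3460 against 1440, 3170 and 2550.

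**Figure D2:**
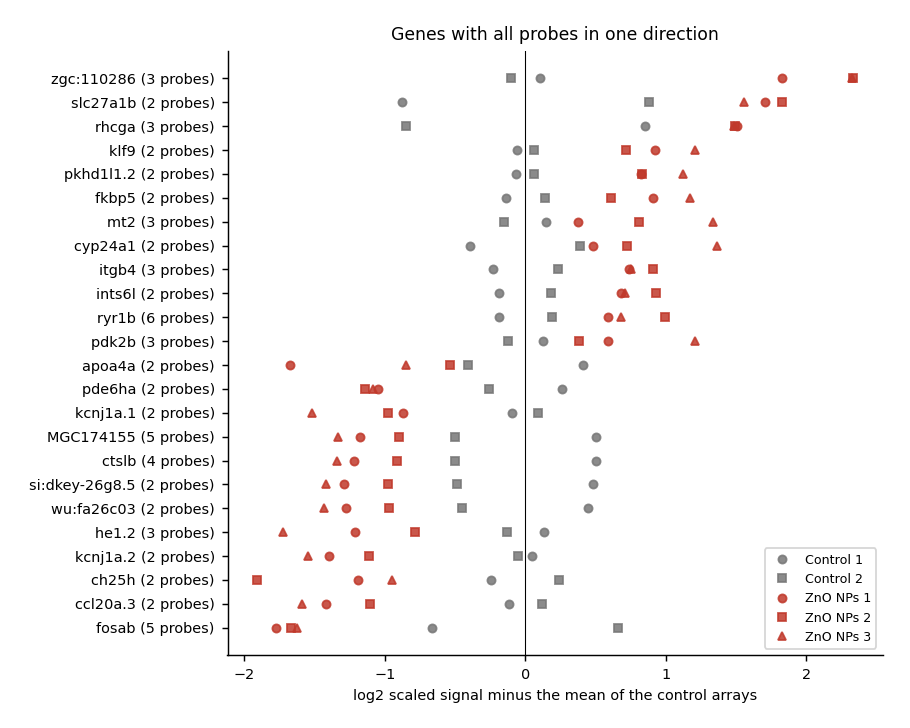
Log2 scaled signal, averaged over the probes of a gene, minus the mean of the control arrays, for the 12 genes with the largest higher and the 12 with the largest lower values among genes with all probes in one direction. Each point is 1 array, and slc27a1b, rhcga, fosab and the cathepsin L genes show the widest gap between the control arrays.

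Functions were followed with 47 lists of genes, each gene taken as the mean of its probes. Among all 12092 such genes, 160 (1.32%) were at least 1.5-fold higher at an unadjusted p under 0.05 and 118 (0.976%) lower, and these were counted as past this rule below. Groups did not overlap in 2450 genes on the higher side (20.3%) and 2834 on the lower side (23.4%), and the median log2 fold change was -0.01. Adjusted p-values of gene means below are over these 12092 genes.

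Zinc handling differed in a few genes, among them the targets of Mtf1, but none of the list was past the adjusted threshold. mt2 averaged 12800 and 10400 in control larvae and 15000, 20200 and 29200 in exposed larvae, which is 0.85 ± 0.25 on the log2 scale (adjusted p = 0.101). All 3 exposed arrays were above both controls, and the exposed arrays were further apart than the controls. Without ZnO NP replicate 3 mt2 was 0.6 higher. The exporter slc30a1a gave 2800 and 2840 against 3800, 4060 and 4820 (0.58 ± 0.11, adjusted p = 0.0762), and mtf1 itself averaged 1110 and 1290 against 1450, 1460 and 1610 (0.33 ± 0.1). slc30a4, which loads zinc into vesicles, was 0.23 higher. The 18 measured genes of the list had a median of -0.01, and 1 gene, mt2, was past the rule above. Without overlap 5 genes were higher and 1 lower, against 20.3% and 23.4% over all genes.

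Of 24 iron handling genes, 3 were past the rule on the higher side and 0 on the lower side: hmox1b, a heme oxygenase, at 1480 and 2430 against 3560, 3060 and 3550 (0.84 ± 0.25), and the transferrin receptors tfr1a (0.61 ± 0.12) and tfr2 (0.66 ± 0.16). The dim tfr2 had 1 of 2 control arrays above background and was 0.26 higher with normexp correction. The iron exporter slc40a1 was 0.46 ± 0.09 higher on the mean of its 4 probes. The ferritin genes fthl27 and fthl31 were lower, by 0.32 and 0.46. These ferritin genes were named through the Nrf2 list, and none of the genes in this paragraph was past the adjusted threshold. The iron list had a median of -0.01, with 7 genes higher and 6 lower without overlap.

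Ionocyte genes went both ways. Of 57 measured, 3 were past the rule on the higher side and 6 on the lower side, where the shares over all genes give 1.32% and 0.976%. Besides the potassium channels, ca15a, a carbonic anhydrase of the acid-secreting ionocytes, gave 1490 and 1530 in control larvae and 812, 676 and 805 in exposed larvae (-0.99 ± 0.14, adjusted p = 0.0673). rhcga was higher at 180, 178 and 177 in exposed larvae, but the control arrays stood at 114 and 35.1, and its log2 fold change was 0.65 without control replicate 2 and 2.35 without control replicate 1. The marker genes of ionocytes went different ways: atp6v1aa, a proton pump subunit, differed by 0.03 ± 0.08, foxi3b, a regulator of ionocyte fate, by -0.37, trpv6, the calcium channel, by -0.66, and slc12a10.2, the sodium chloride cotransporter, by 0.74. Summed over the 5 markers, the signal was 37070 and 40960 in control larvae and 37790 to 41590 in exposed larvae.

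The hatching gland list had 3 of 10 measured genes past the rule on the lower side and 0 on the higher side. The hatching enzyme he1.2 averaged 6180 and 5160 in control larvae and 2440, 3270 and 1710 in exposed larvae (-1.24 ± 0.3), and he1.1 gave 3070 and 2490 against 1220, 1620 and 900 (-1.19 ± 0.3). These enzymes digest the egg envelope, and as near copies their probes may share targets. ctslb averaged 3920 and 1950 against 1190, 1470 and 1090, and tspan36 18300 and 12700 against 11500, 11700 and 12400. Both are members of the list outside the measured gland markers. For these, control replicate 1 lay above replicate 2, and tspan36 was 0.1 lower without it. A further enzyme, he1.3, was 0.3 higher. The 3 measured gland markers summed to 10280 and 8764 in control larvae and 4864, 6245 and 4014 in exposed larvae, and the number of gland cells was not tested.

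**Figure D3:**
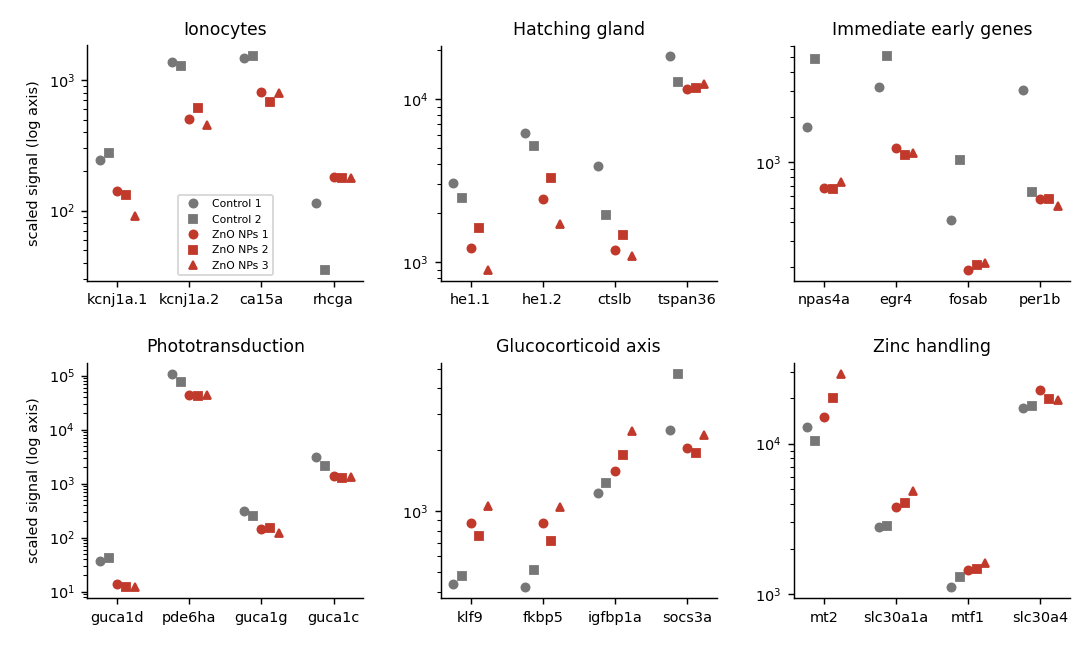
Scaled signal (log axis) of 4 members of each of 6 gene lists, averaged over the probes of a gene, with control arrays in grey and ZnO NP arrays in red. Control arrays are apart for rhcga, npas4a, fosab and per1b, and close together for kcnj1a.2, ca15a and slc30a1a.

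Immediate early genes, which neurons and other cells switch on within minutes of a stimulus, held a few large differences. Of 52 measured, 8 were past the rule on the lower side and 2, klf9 among them, on the higher side. As a list they had a median of -0.05, which was 0.01 with normexp correction and without control replicate 2, and 14 were lower and 8 higher without overlap. npas4a, which responds to neuronal activity, gave 1720 and 4890 in control larvae and 672, 669 and 743 in exposed larvae (-2.06 ± 0.36), and fosab averaged 416 and 1040 against 192, 207 and 213 over 5 probes (-1.69 ± 0.32, adjusted p = 0.0762). Control replicate 2 was the highest array for both of these and for egr4, and the exposed arrays were nearly equal. Without that array fosab was 1.03 lower and npas4a 1.31 lower on the log2 scale. per1b, also a clock gene, was the opposite, with 3040 in control replicate 1, 633 in control replicate 2 and 573, 573 and 513 in exposed larvae, and its value without control replicate 1 was -0.2. The negative feedback gene socs3a was 0.71 ± 0.25 lower, but at -0.25 without control replicate 2.

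Of 39 clock genes, 3 were past the rule on the higher side and 5 on the lower side. per3 averaged 135 and 76.9 against 49.8, 69.3 and 45.3 (-0.92 ± 0.25). Its probes differed: the brighter one overlapped at -0.23 ± 0.22, and the dim one was at -1.61 ± 0.43. With normexp correction per3 was at -0.25. aanat2, the melatonin enzyme of the pineal gland, gave 476 and 865 against 1150, 1100 and 1220 (0.85 ± 0.21), and cry3b, a cryptochrome, was 0.96 ± 0.39 higher but only 0.14 without control replicate 1. The control arrays were further apart than the exposed arrays for all 4 of these genes, and the hour of sampling per array is not given in the sources used here.

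In the retina the difference lay in a few calcium and cGMP regulators. Of 57 phototransduction genes, 4 were past the rule on the lower side and 0 on the higher side. pde6ha averaged 109000 and 75900 in control larvae and 43900, 41300 and 43000 in exposed larvae (-1.09 ± 0.13, adjusted p = 0.0599), and guca1c, a guanylate cyclase activator, 3140 and 2100 against 1380, 1290 and 1330 (-0.95 ± 0.15). The related guca1g was lower by 1.02 ± 0.15, and guca1d by 1.62 ± 0.21 with 1 of 3 exposed arrays above background. The exposed arrays agreed closely on pde6ha and guca1c. The guca1d probe had been tested through the control arrays alone, and its log2 fold change was -0.31 with normexp correction. Its exposed values lay near background, so their likeness cannot be read as agreement in expression. Photoreceptor markers differed less: rho, the rod opsin, by 0.06 ± 0.08 over 8 probes, gnat1 by 0.06 ± 0.14 and opn1sw1 by -0.03 ± 0.08. The markers gnat2 and pde6c differed by -0.11 ± 0.06 and -0.14 ± 0.1, and gnat2 was lower without overlap. The 5 retina markers summed to 120500 and 123800 in control larvae and 113700 to 125900 in exposed larvae.

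Targets and parts of the glucocorticoid axis had a median of 0.19 over 29 genes, with 9 higher and 2 lower without overlap, against 20.3% and 23.4% over all genes. The median was 0.08 without control replicate 1 and 0.11 without ZnO NP replicate 3. Past the rule were klf9, fkbp5 and igfbp1a on the higher side and socs3a, at -0.25 without control replicate 2, on the lower side. igfbp1a, a binding protein for insulin-like growth factors, averaged 1220 and 1370 against 1580, 1890 and 2470 (0.59 ± 0.2). Among the pituitary and hypothalamic hormones, smtlb, a somatolactin, gave 513 and 2570 in control larvae and 359, 308 and 399 in exposed larvae, and gh1, growth hormone, 783 and 855 against 564, 449 and 587 (-0.63 ± 0.13). The gap of smtlb (-1.7 ± 0.57) was set by control replicate 2, without which it was -0.54. The gonadotropin-releasing hormone gene gnrh2 was 0.44 ± 0.11 lower and avp, vasopressin, 0.45 ± 0.11 higher.

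The most uniform differences were small and ran through whole machineries. Of 83 cytosolic ribosomal protein genes, 81 were lower without overlap and 0 higher, with a median of -0.21 and single genes between -0.32 and -0.1. Of 65 genes of the mitochondrial ribosome, 56 were lower and 1 higher without overlap (median -0.23), and of 98 genes of the respiratory chain and its assembly 80 were lower and 0 higher (median -0.21). None of these genes was past the fold rule. Among genes without overlap the largest differences were those of rpl31 (-0.32 ± 0.1), rpl36 (-0.31), rps27l (-0.31) and rplp0 (-0.3) among ribosomal proteins, mrpl9 (-0.45), mrpl12 (-0.35), mrps25 (-0.34) and mrpl43 (-0.34) in the mitochondrial ribosome, and cox5b2 (-0.49 ± 0.07), sdhaf4 (-0.38), ndufa3 (-0.34) and ndufb2 (-0.32) in the respiratory chain. Relative to the control mean the ribosomal median was 0.06 and -0.06 on the control arrays and -0.2, -0.17 and -0.27 on the exposed arrays. Its sign held under all alternatives and its size did not. With quantile normalization it was -0.06, close to the median of -0.04 over all genes in that setting. Without control replicate 1 it was -0.14.

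DNA replication and mitosis genes shared the direction, with 42 of 95 lower and 2 higher without overlap and a median of -0.12. The GINS helicase subunit gins4 averaged 649 and 485 against 314, 404 and 284 (-0.77 ± 0.23). The single-strand binding protein subunit rpa3 was 0.47 ± 0.09 lower and gins2 0.44 lower. The gene orc6, of the origin recognition complex, was 0.62 lower, but at -0.24 with normexp correction. Of 44 proteasome genes, 15 were lower and 3 higher without overlap, against 23.4% and 20.3% over all genes. The members psmb4, psmd10 and psmd9 were lower by 0.27, 0.29 and 0.28 while the activator psme4b was 0.4 higher.

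Genes of synapses and of the extracellular matrix were the counterpart on the higher side. Of 84 synaptic genes, 51 were higher and 1 lower without overlap (median 0.24), and of 56 collagen and matrix genes 37 were higher and 1 lower (median 0.24). At the synapse, nlgn1, a neuroligin that joins the membranes, gave 35.6 and 50.1 against 74.9, 82.7 and 80.9 (0.91 ± 0.2), slc6a5, the glycine transporter, 150 and 221 against 289, 302 and 293 (0.7 ± 0.16), and the receptor subunits gria3b and gabrr3a were 0.69 and 0.63 higher. Of these, gria3b had 1 of 2 control arrays above background and was 0.31 higher with normexp correction. In the matrix, col11a1b, a cartilage collagen, averaged 192 and 258 against 324, 382 and 365 (0.68 ± 0.13), fn1b, a fibronectin, was 0.75 ± 0.23 higher and fbn2b, a fibrillin, 0.83 ± 0.26 higher. The exception in that list was serpinh1b, a collagen chaperone that also responds to heat, at 2000 and 902 against 732, 661 and 715 (-0.93 ± 0.28, and -0.36 without control replicate 1). All 8 measured metalloproteinases and their inhibitors had log2 fold changes above 0 (median 0.32), led by mmp9 at 885 and 660 against 1180, 1160 and 2530, followed by adamts15a (0.7), mmp14b (0.41) and mmp14a (0.27). Of 5 neuron markers 3 were higher without overlap, elavl4 (0.34 ± 0.09), elavl3 (0.29 ± 0.11) and snap25a (0.1 ± 0.07), while sncb (0.02 ± 0.06) and gap43 (-0.05 ± 0.07) overlapped, and the 5 summed to 38900 and 39070 in control larvae and 38790 to 41700 in exposed larvae. The 4 measured cartilage and bone markers had a median of 0.27 and summed to 31100 and 29560 in control larvae and 35240, 36390 and 33990 in exposed larvae, with col2a1a, the main cartilage collagen, 0.39 ± 0.12 higher. The part of these cell types in the list medians was not tested.

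Gene length ran with these lists. When all genes were put into 5 groups of equal size by their genomic span in the RefSeq annotation of GRCz12tu, the median log2 fold change went from -0.14 (median span 3.63 kb) through -0.09, -0.03 and 0.06 to 0.16 (median span 75.6 kb). In the group of shortest genes 40.3% were lower and 7.52% higher without overlap, and in the group of longest genes 7.11% were lower and 43.9% higher. The median span was 5.19 kb for the ribosomal proteins, 6.78 kb for the mitochondrial ribosome and 5.75 kb for the respiratory chain, against 46.8 kb for the synaptic genes and 42.7 kb for the matrix genes. The control arrays differed from each other along the same order, from 0.04 to -0.05 for replicate 1 and from -0.04 to 0.05 for replicate 2. Ordered by signal instead, the median went from 0.11 in the dimmest group to -0.11 in the brightest. The part of gene span and of signal in the list medians was not tested.

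**Figure D4:**
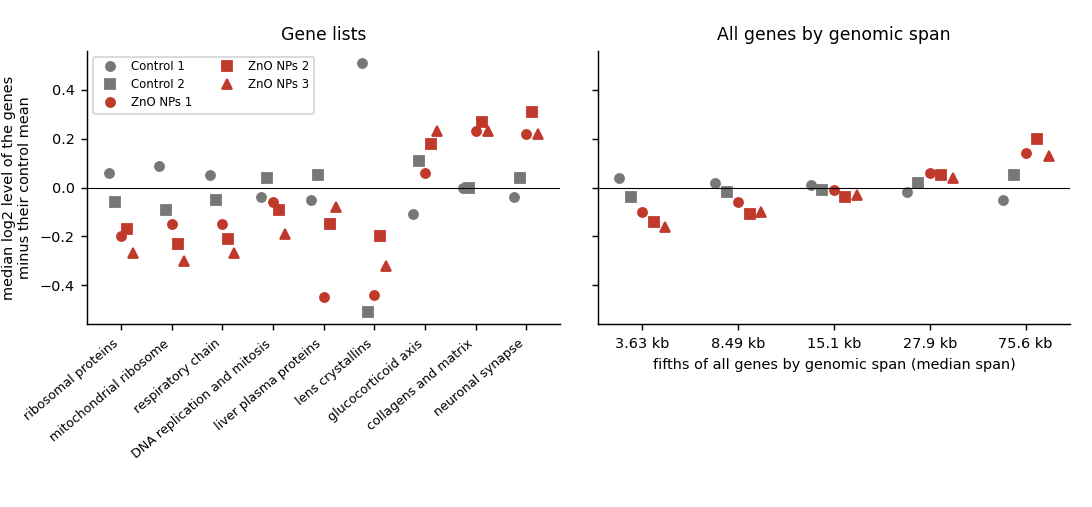
Median log2 level of the genes of 9 lists (left) and of all genes in 5 groups by genomic span (right), relative to the control mean, on each array. The exposed arrays lie below both controls for both ribosomes and the respiratory chain and above them for matrix and synapse, and the levels of lens crystallins on the exposed arrays lie between the control arrays.

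Secreted liver proteins were lower in part, where over all genes 23.4% were lower and 20.3% higher without overlap. Of 42, 13 were lower and 0 higher without overlap (median -0.22), with apoa2, an apolipoprotein, at 259000 and 235000 in control larvae and 134000, 193000 and 203000 in exposed larvae (-0.51 ± 0.17), apom at 37600 and 34700 against 16700, 29300 and 28200 (-0.59 ± 0.22), the coagulation factor f7 0.54 ± 0.14 lower and vtna, vitronectin, 0.5 ± 0.17 lower. ZnO NP replicate 1 was the lowest array for each of these, and the list median was -0.1 without it. The 4 measured liver markers summed to 370300 and 364500 in control larvae and 214800, 288000 and 306000 in exposed larvae, and their part in the list was not tested. Complement genes stayed near the background, with 4 higher and 3 lower of 27, c1s.2 and cfbl being 0.59 and 0.34 higher and crp4, of the C-reactive protein family, 0.39 lower. Vitellogenins, the yolk precursors, were dim: vtg7 averaged 40.2 and 38.3 in control larvae and 49.1, 125 and 167 in exposed larvae (1.36 ± 0.49), so that replicate 1 was close to the controls, and vtg4 was at least 1.87-fold higher, with no control array above background. The median of the 4 genes, 1.26, was 0.61 with probes above background on all 5 arrays, 0.59 with no filter on dim probes and 0.38 with normexp correction.

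Several tissues were set by the control arrays. Lens crystallins had a median of -0.33 over 47 genes with 8 lower and 1 higher without overlap, but the control arrays stood at 0.51 and -0.51 around their mean and the median turned to 0.2 without control replicate 1. The measured lens markers summed to 118900 and 55490 in control larvae and 59900, 67010 and 64950 in exposed larvae. Of the members without overlap, crygmxl1, crygm1, crygmx and cryaa were at -0.66, -0.52, -0.33 and -0.18 without that array. The choice of genes without overlap fixes this direction. The brighter crygm1 probe overlapped, at 286 and 117 against 109, 125 and 136, and the dim one had 1 of 3 exposed arrays above background. Exocrine pancreas enzymes had no gene without overlap among 23, and prss1, trypsin, averaged 45100 and 114000 in control larvae and 75000, 52800 and 64100 in exposed larvae. The median of the pancreas list was -0.97 without control replicate 1 and 0.36 without control replicate 2, and that of the intestine list -0.48 and 0.5. In the intestine list apoa4b.1 was 0.56 ± 0.2 lower and 2 genes were past the rule on the higher side. The chitinases went opposite ways: chia.4 was 1.32 ± 0.29 higher, with 1 of 2 control arrays above background and a value of 0.49 with normexp correction, and chia.6 was 0.58 ± 0.2 lower, and 0.19 lower without control replicate 2.

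Muscle, blood and skin differed little. Of 62 skeletal muscle genes, 19 were lower and 6 higher without overlap, near the background on the lower side, and the median of -0.07 was 0.04 with quantile normalization. ryr1b and atp2a1l, a calcium pump, were higher (0.75 ± 0.17 and 0.52 ± 0.1), while the calcium-binding parvalbumins pvalb3 and pvalb9 were lower by 0.44 ± 0.07 and 0.5 ± 0.16. In the heart list myh6, atrial myosin, gave 161 and 191 against 272, 241 and 243 (0.52 ± 0.09), tbx20 and atp2a2a were 0.82 and 0.41 higher, and nppal was 0.4 lower. For tbx20, 1 of 2 control arrays was above background, and its value was 0.33 with normexp correction. Of the 4 measured heart markers myh6 was higher and 2 were lower without overlap, myl7, a cardiac myosin light chain (-0.33 ± 0.06), and nppa, a natriuretic peptide (-0.36 ± 0.09), and the 4 summed to 9295 and 8765 in control larvae and 8162, 7749 and 7720 in exposed larvae. Of 27 globin and heme genes 1 was past the rule, epb41b, of the red cell skeleton, at 389 and 360 against 557, 568 and 561 (0.59 ± 0.08, adjusted p = 0.0645), while nt5c2l1 and sptb were 0.4 and 0.43 higher and cpox 0.32 lower. Of 24 keratin and junction genes 1 was past the rule, krt98 (-0.74 ± 0.15), and the plakins evpla and ppl were 0.49 and 0.46 higher.

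Stress and detoxification genes gave no rise as a group. Of 35 genes of the Nrf2 antioxidant response, 16 were lower and 1 higher without overlap (median -0.11), and gpx4a, a lipid peroxidase, averaged 65400 and 59600 in control larvae and 34900, 45100 and 43500 in exposed larvae (-0.61 ± 0.12, adjusted p = 0.0762). Of 45 heat shock genes, 13 were lower and 3 higher without overlap (median -0.08). Over all genes 23.4% were lower and 20.3% higher without overlap. The lower heat shock genes included serpinh1b, given above with the matrix genes, hsp90aa1.1 at 3470 and 2400 against 1580, 1510 and 1860 (-0.81 ± 0.16) and dnaja1 (-0.59 ± 0.1). The small heat shock protein hspb6 was 0.78 ± 0.19 higher. The unfolded protein response had 0 genes past the rule among 49, with slc3a2b, sel1l and vldlr 0.32, 0.21 and 0.21 higher and derl3 0.22 lower. Among 48 genes of the p53 and apoptosis list 1 was past the rule, btg2 (-0.6 ± 0.17, and -0.27 without control replicate 2). In that list gadd45aa was lower (-0.41 ± 0.07) while foxo3b and casp3b were 0.4 and 0.34 higher. Cytochrome P450 enzymes had 1 of 58 past the rule, cyp24a1, and the sulfotransferases sult1st4 (-0.64 ± 0.07, adjusted p = 0.0465) and sult5a1 (-0.97 ± 0.34) were the 2 of 54 conjugating enzymes past it. On the mean of its 3 probes sult1st4 passed the threshold that none of its probes passed alone. The dimmer sult5a1 probe had 1 of 3 exposed arrays above background, and sult5a1 was at -0.46 with normexp correction.

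Immune lists differed among themselves. Of 44 inflammation genes, 15 were lower and 3 higher without overlap (median -0.15). Over all genes 23.4% were lower and 20.3% higher without overlap. The inflammation genes were short, with a median span of 3.79 kb, and in the group of shortest genes 40.3% were lower and 7.52% higher. The part of gene span in this list was not tested. Besides ccl20a.3, the chemokine ccl34b.1 gave 710 and 586 against 495, 405 and 449 (-0.53 ± 0.11), and mmp9 was the member past the rule on the higher side. The tumor necrosis factor tnfb was 0.64 ± 0.13 lower, but at -0.29 with normexp correction. Its dimmer probe had 1 of 3 exposed arrays above background. Of 36 interferon genes 7 were lower and 3 higher without overlap (median -0.07, but 0.03 with normexp correction and 0.02 without ZnO NP replicate 2), and 3 were past the rule on the lower side, psmb9a (-0.75), ifnphi4 (-0.73) and ifi44c1 (-0.71), with ifnphi1 0.37 higher. With normexp correction psmb9a, ifnphi4, ifi44c1 and ifnphi1 were at -0.18, -0.36, -0.39 and 0.19. The brighter ifi44c1 probe was at -1.23, while the other overlapped at -0.19. Among 27 genes of neutrophils and macrophages 5 were higher and 4 lower without overlap. The antigen presentation chains cd74a and cd74b were lower (-0.5 and -0.66 ± 0.12) while mpx, the neutrophil peroxidase, averaged 77.8 and 68.2 against 108, 93.9 and 113 (0.53 ± 0.13) and ncf4 was 0.24 higher. The 3 measured markers of neutrophils and macrophages summed to 4968 and 3822 in control larvae and 4052 to 5151 in exposed larvae. Of 35 lymphocyte genes on the array 10 were measured, with 3 higher and 0 lower without overlap, and of these tox, a thymocyte regulator, differed by 0.14 ± 0.06.

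Metabolic lists were mixed. pklr, the pyruvate kinase of liver and red cells, was the member past the rule among 71 genes of glycolysis and gluconeogenesis: its 6 probes averaged 8140 and 10200 in control larvae and 4840, 5180 and 5520 in exposed larvae (-0.82 ± 0.1, adjusted p = 0.0599), and each probe was lower by 0.74 to 0.9. pfkfb4b, which promotes glycolysis, was 0.47 ± 0.09 higher and slc2a13b 0.37 lower. In the fatty acid oxidation list 3 of 58 genes were past the rule on the higher side, slc27a1b, lipca and pdk2b. The receptor pparab, which senses lipids, was 0.43 ± 0.07 higher. As a list these genes had a median of -0.01. Without overlap 9 were higher and 10 lower, against 20.3% and 23.4% over all genes. pdk2b averaged 854 and 719 against 1180, 1020 and 1810 (0.72 ± 0.24), and lipca, hepatic lipase, gave 13.3 and 49.6 against 71.8, 78.9 and 82.5, so its size rests on control replicate 1, without which it was 0.65. On lipca 1 of 2 control arrays was above background, and it was 0.5 higher with normexp correction. Lipid synthesis had ldlra (0.69 ± 0.21) and elovl1a (0.61 ± 0.14) past the rule, with elovl8b and mvk 0.4 and 0.28 lower, and of the hypoxia list igfbp1a was past it, with egln3 0.4 higher and vhl 0.38 lower.

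Genes of developmental signalling pathways stayed near the shares over all genes, 20.3% higher and 23.4% lower. Hox genes and steroid and thyroid signalling (11 higher and 2 lower of 39 without overlap) leaned to the higher side. Glial genes (2 higher and 9 lower of 27) leaned to the lower side. Among 109 genes of the Wnt, Bmp, Fgf, Hedgehog and Notch pathways 26 were higher and 26 lower without overlap. wnt3a, a Wnt ligand, gave 32.8 and 44.6 against 54.2, 82.4 and 111 (1.05 ± 0.34), bmp1a, a procollagen protease, averaged 63.6 and 83.2 against 109, 125 and 121 (0.7 ± 0.13), nog5, a noggin, was 0.82 ± 0.15 higher and her3, a Notch-pathway repressor, 1 lower. On nog5 1 of 2 control arrays was above background, and on the dimmer her3 probe 1 of 3 exposed arrays. With normexp correction nog5 and her3 were at 0.3 and -0.18. Of 45 Hox genes 17 were higher and 6 lower without overlap, with hoxa11a past the rule (0.98 ± 0.23, dim) and hoxc6b, hoxa9a and hoxd12a at 0.35, 0.3 and -0.34. Steroid and thyroid signalling had a median of 0.1 over 39 genes, with the vitamin D receptor vdra at 46.2 and 64.6 against 90.1, 80.5 and 97.3 (0.7 ± 0.15) beside cyp24a1, its target in other vertebrates, at 353 and 607 against 645, 764 and 1190. cyp26c1 and rxrbb were 0.43 and 0.36 higher, and cyp4f3 and cyp1c2 0.36 and 0.25. In the bone list itgb3a, itgb3b and enpp1 were 0.51, 0.57 and 0.4 higher. The osteopontin gene spp1 was 0.79 ± 0.25 lower, but at -0.29 without control replicate 2. Of the glial list her4.1, her4.4 and fabp7a were 0.33, 0.31 and 0.26 lower and slc1a2b 0.21 higher. The germ line and egg list had 5 higher and 5 lower of 24 without overlap and a median of -0.07, which was 0.05 with normexp correction and -0.25 with quantile normalization. In it dazl and zp2l2 were 0.59 and 0.41 higher and nanos3 was 0.33 lower. With normexp correction dazl and zp2l2 were 0.23 and 0.22 higher, and dazl had 1 of 2 control arrays above background.

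**Figure D5:**
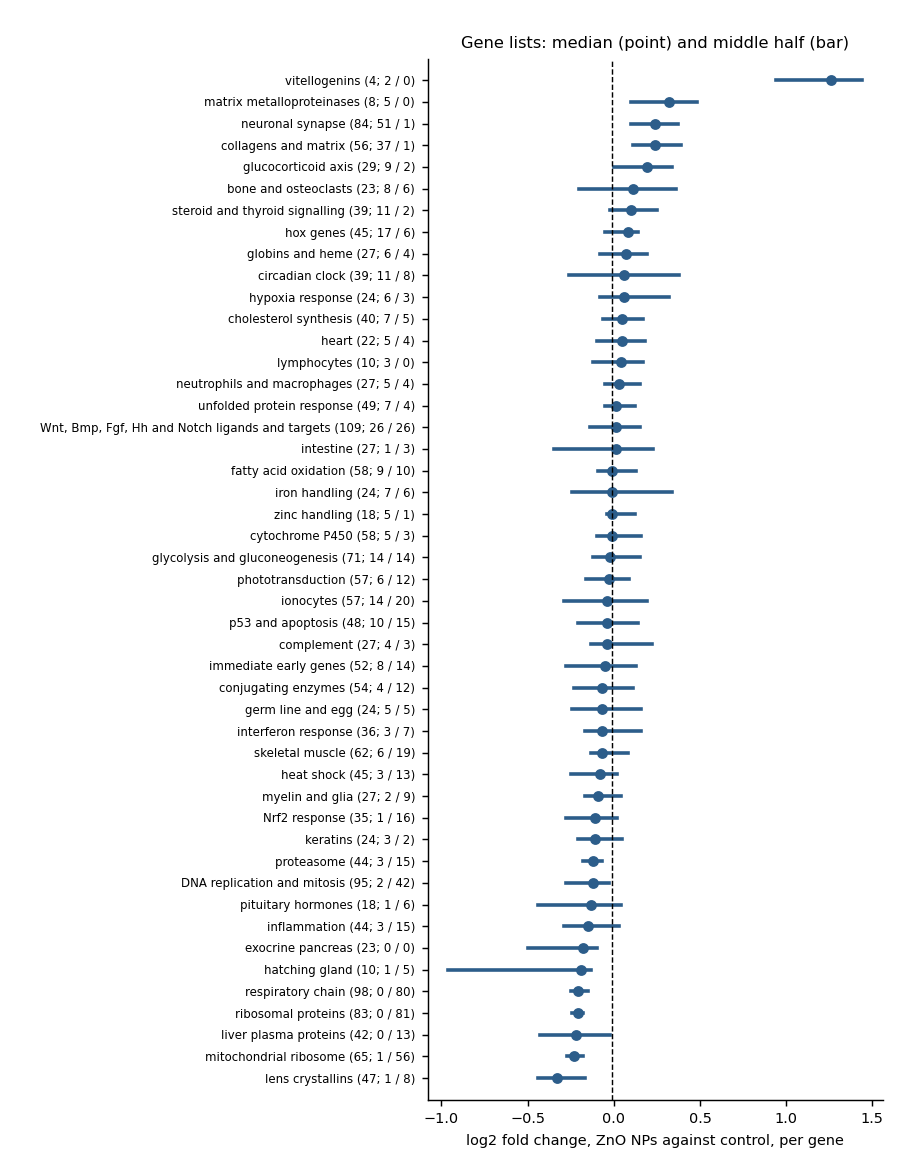
Median log2 fold change (point) and the middle 50% of genes (bar) for each of the 47 lists, ordered by median, with the median of all genes as a dashed line. In brackets stand the genes measured and, after the semicolon, how many were higher / lower without overlap, from the dim vitellogenins at 1.26 (0.61 for probes above background on all 5 arrays) to lens crystallins at -0.33 (0.2 without control replicate 1).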

How the data were processed

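The deposited scanner files are the output of Agilent Feature Extraction (10.10.1.1 by the file headers), which the authors used to subtract the background and a spatial trend from each spot's intensity. A deposited table also holds the authors' log2 values, shifted by a percentile per array and centred per probe. 99.95% of them were within 0.02 of the values computed here.

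Control and outlier spots were left out, the 75th percentile of an array was subtracted from its log2 intensities, and spots of a probe were averaged. Probes well above background on all arrays of at least 1 of the 2 groups were tested with limma 3.58.1 in R 4.3.3, fitting all 8 arrays in 3 groups (5 residual and 2.466 prior degrees of freedom). Calls needed a fold change of 1.5 and a Benjamini-Hochberg adjusted p under 0.05. The script was tested on simulated data. Tables were made in Python. Where no array of a group was above background, its signal was raised to the lowest such signal per array and the fold is a bound.

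Symbols came from RefSeq accessions (25854 probes, 13293 symbols, GRCz12tu) and, for called probes without one, a supplementary table of the paper. Named, leaving out genes that the paper names, are called probes with a symbol, the 12 genes up and 12 down with the largest median change on 2 or more probes without overlap, up to 4 members per list with the largest change without overlap at an unadjusted p under 0.05 (otherwise the brightest member), and zinc and tissue markers; he1.3 was added after its value had been seen. 1 result that the rule names is not reported here. Members, lists and rule were chosen with earlier results of these data known. Some symbols that did not belong to a list by name (such as kinases matched with the ribosomal proteins) were removed after values had been seen. Alternatives changed scaling, background correction, filter, arrays, blocks, test and threshold. p-values measure the spread between these arrays.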

Additional observations from a re-analysis of the deposited data

How the results depend on the processing

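The direction split and the number of calls depended on the processing. The 7 probes called up and 7 down became 0 and 1 with the 5 arrays only, 2 and 1 with no filter on dim probes, and 1 and 1 when blocking on slide side. With 1 value per gene 4 and 4 genes were called, and at an adjusted p under 0.10 159 and 81 probes. Quantile normalization called 12 down. The methods' ANOVA called 349 up and 156 down unadjusted and 0 and 2 after Benjamini-Hochberg. At an unadjusted p the 719 higher and 331 lower probes became 113 and 158 with normexp, 318 higher with quantile normalization, and 160 and 118 with 1 value per gene. The 39 genes higher on all probes became 11 with normexp and 21 with quantile normalization, and the 42 lower ones 26 with normexp. The causes were not tested.

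Leaving out 1 array gave 1 to 1273 probes called up, 1 to 423 down, 415 to 2325 higher and 311 to 718 lower at an unadjusted p, and 36 to 159 genes higher and 28 to 110 lower on all probes. The upper ends came from leaving out control replicate 2, which leaves 1 control array, assumed to vary like the other groups.

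Replicate numbers did not pair the arrays, since same-numbered deviations correlated at -0.023 and -0.066. With the number as a block 1 probe was called up and 1 down.

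Of 196 named genes and probes 8 changed sign, none past the fold rule: with quantile normalization actc1b (0.05) and hbae3 (0.09), without control replicate 1 atp6v1aa (-0.03), cryba1b (0.22), cyt1 (0.03) and hbae3 (0.21), without control replicate 2 lyz (-0.1), matn1 (-0.05) and prss1 (0.49), and without ZnO NP replicate 1 atp6v1aa (-0.02) and hbae3 (0.02). Their ranges with 1 array left out were -0.92 to 0.22 for cryba1b, -0.4 to 0.03 for cyt1, -0.31 to 0.21 for hbae3, -0.1 to 0.28 for lyz, -0.05 to 0.17 for matn1 and -0.84 to 0.49 for prss1. Most named genes were chosen without overlap between groups, so leaving out 1 array could not reverse their sign. Dim probes (among them those of vtg4, guca1d, ch25h, gria3b, tfr2, tbx20, nog5, dazl and lipca) are limited by the background.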
